A study of Mus musculus with 21 samples.

Results

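White fat of conventionally raised mice was compared between dusk, the pool of zeitgeber times ZT10 and ZT14, and morning, the pool of ZT02 and ZT06, across all measured genes. The rule took every conventional library of these times, 4 at dusk and 4 in the morning, which is 8 of the 21 libraries of the series. Zeitgeber time counts hours from lights on, and mice, as nocturnal animals, feed mostly in the dark and rest in the light. The study profiled total RNA of epididymal white adipose tissue, the visceral depot beside the testis, every 4 h over the day in conventional mice, which carry a gut microbiota, and in germ-free mice, which carry none. All animals were C57BL/6j males of 15-16 weeks fed ad libitum, and the labels name no transgene or treatment. Dusk was represented by 2 libraries at ZT10 and 2 at ZT14, and morning by 2 at ZT02 and 2 at ZT06. The other 4 conventional libraries (ZT18 and ZT22) entered the fit to estimate the spread, and 6 germ-free libraries of the same 4 times, 3 at dusk and 3 in the morning, served for a comparison. Each library is named by its time and the replicate number of its title. Nothing in the labels says whether a mouse gave 1 library or more, so the p-values reflect library-to-library spread, which may be technical. The light schedule is not given in the sources used here.

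Fat cells keep a circadian clock in which the activators BMAL1 (gene Arntl) and CLOCK or NPAS2 drive the Period and Cryptochrome repressors, which then shut the activators down. A second loop runs through the REV-ERB and ROR receptors, which repress and activate Arntl, and another through the PAR bZIP factors Dbp, Tef and Hlf and their repressor Nfil3. White fat makes fatty acids from glucose after meals and releases stored fat between meals. The transcription factors SREBP1 and ChREBP drive fatty acid synthesis, and SREBP2 drives cholesterol synthesis.

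The 8 libraries held 27488247 to 37097857 counts at dusk and 31874817 to 34903306 in the morning. Summed adipocyte markers overlapped between the groups, 44195 to 49645 CPM at dusk, against 37365 to 55027 CPM in the morning (exact permutation p = 1), and adipocyte genes were abundant in all 8 libraries. RNA of neighbouring tissues stood out in single libraries. Summed ciliated duct markers were 104 CPM in ZT14 replicate 2, 236 CPM in ZT02 replicate 1, 243 CPM in ZT02 replicate 2 and 62.3 CPM in ZT06 replicate 2, and at most 35.8 CPM in the other 4. Hepatocyte markers summed to 676 CPM in ZT02 replicate 2, epididymal and accessory gland markers to 1612 CPM in ZT10 replicate 2, and spermatid markers to 58.3 CPM in ZT14 replicate 1. Of 17 library measures, 3 did not overlap between the groups, and none passed after adjustment (exact permutation p = 0.0286 each, the smallest 4 against 4 libraries allow, adjusted p = 0.162). They were lymphocyte markers (212 to 267 CPM at dusk, against 334 to 726 CPM in the morning), Schwann cell markers (49.8 to 64.4 CPM at dusk, against 46.4 to 48.7 CPM in the morning) and the rank correlation of each library's deviation from the mean with exon length (0.0223 to 0.120 at dusk, against -0.209 to 0.00348 in the morning). Single genes made up most of both marker sums, Ighm with 199 to 247 CPM at dusk, against 316 to 698 CPM in the morning, and Mbp with 42.7 to 58.4 CPM at dusk, against 38.7 to 40.9 CPM in the morning. Across the 13596 genes at or above a mean of 1 log2 CPM, the dusk fold change correlated with exon length at rho 0.170. That correlation is across genes, which are no independent replicates.

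At dusk 678 of the 19757 tested genes were higher (3.43%) and 368 were lower (1.86%) at an adjusted p under 0.05 by edgeR's quasi-likelihood test. Of these, 54 of the higher and 54 of the lower genes moved more than 2-fold, and the median log2 fold change of all tested genes was -0.02. Without any test, the 4 dusk libraries lay above the 4 morning libraries in 1474 genes (7.46%) and below them in 952 (4.82%), among them 569 of the higher and 287 of the lower genes that passed. The counts leaned on single libraries: without ZT06 replicate 2, 92 genes passed as higher and 38 as lower, and without ZT14 replicate 1 the counts were 126 and 52. Leaving out either ZT02 library, either ZT10 library, ZT06 replicate 1 or ZT14 replicate 2 gave 218 to 450 higher and 93 to 171 lower genes. In every one of the 12 fits that left out a single conventional library, 83 higher and 32 lower genes passed. With the 4 libraries highest in ciliated duct markers left out, a setting chosen after seeing the data that leaves 3 dusk libraries and 1 morning library, edgeR passed 0 genes (1762 at an unadjusted p under 0.05) and DESeq2 passed 272. Of the 1045 called genes tested in that reduced fit, 1036 kept their sign, on libraries that both fits share.

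**Figure D1:**
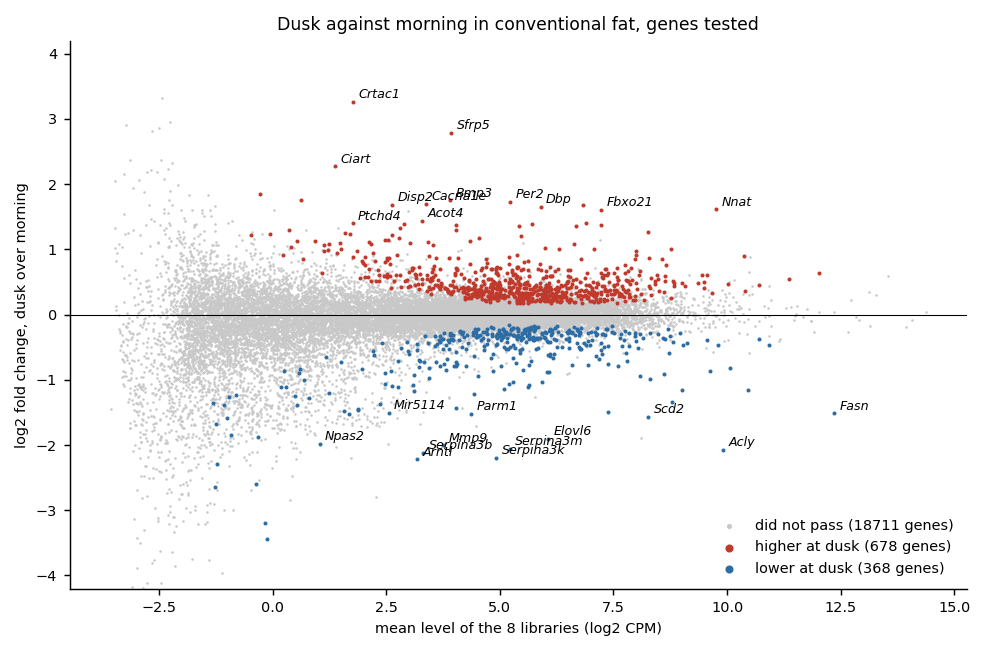
Log2 fold change of dusk over morning (vertical axis) against the mean level of the 8 conventional libraries (horizontal axis, log2 CPM), 1 point a gene. Red points are the 678 genes higher at dusk, blue points the 368 lower ones and grey points those that did not pass; the 24 labelled genes include Crtac1 at 3.26 and Arntl at -2.22, and 12 genes lie beyond the axis limit of 4.2.

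Clock genes differed between dusk and morning in both directions. All 3 Period genes rose, their activators Arntl, Clock and Npas2 fell, and the output factors Ciart, Dbp, Hlf, Tef, Wee1 and Usp2 rose. Of the 7 clock repressors, 5 rose and 0 fell (median log2 fold change 0.86); of the 10 output factors, 6 rose and 1 fell (median 0.92); of the 5 activators and RORs, 1 rose and 3 fell (median -0.61). These stand beside 3.43% higher and 1.86% lower among all tested genes, and 3 repressors passed without ZT06 replicate 2. The turnover list holds kinases and ubiquitin ligases that act on clock proteins, and also Timeless and Tipin. It gave 1 of 8 (median 0.10), the kinase Csnk1e, with a log2 fold change of 0.41 ± 0.062.

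Arntl had 3.62 and 3.21 CPM at ZT10 and 3.02 and 7.68 CPM at ZT14, against 24.1 and 27.2 CPM at ZT02 and 15.3 and 15.4 CPM at ZT06. Every dusk library lay below every morning library, and Arntl had a log2 fold change of -2.22 ± 0.25 (SE) with adjusted p = 0.00483. Its partner Clock had 109 and 128 CPM at ZT10 and 119.6 and 138 CPM at ZT14, against 197 and 190.0 CPM at ZT02 and 184 and 181 CPM at ZT06, with no overlap, and had a log2 fold change of -0.61 ± 0.074 (SE) with adjusted p = 0.00577. Npas2, a CLOCK paralogue, had 1.15 and 0.704 CPM at ZT10 and 0.928 and 1.24 CPM at ZT14, against 3.20 and 4.32 CPM at ZT02 and 3.86 and 4.53 CPM at ZT06, again without overlap, and had a log2 fold change of -1.99 ± 0.25 (SE) with adjusted p = 0.00604. Rora, which activates Arntl, moved the other way with a log2 fold change of 0.45 ± 0.065, adjusted p = 0.0102.

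Per2 had 54.1 and 54.6 CPM at ZT10 and 93.0 and 78.5 CPM at ZT14, against 26.9 and 21.6 CPM at ZT02 and 17.2 and 17.9 CPM at ZT06. The dusk libraries were all above the morning ones, with ZT14 the highest of the 4 times, and Per2 had a log2 fold change of 1.73 ± 0.13 (SE) with adjusted p = 0.00199. Per1 had 63.4 and 63.0 CPM at ZT10 and 68.8 and 82.5 CPM at ZT14, against 31.1 and 20.1 CPM at ZT02 and 31.7 and 24.6 CPM at ZT06, without overlap, and had a log2 fold change of 1.36 ± 0.17 (SE) with adjusted p = 0.00577. Per3 had 245 and 260.3 CPM at ZT10 and 251 and 217 CPM at ZT14, against 82.9 and 60.0 CPM at ZT02 and 126 and 119 CPM at ZT06; the groups did not overlap and Per3 had a log2 fold change of 1.38 ± 0.12 (SE) with adjusted p = 0.00268. Cry1 had 10.6 and 12.0 CPM at ZT10 and 21.6 and 16.8 CPM at ZT14, against 9.53 and 11.3 CPM at ZT02 and 7.597 and 8.18 CPM at ZT06. ZT10 replicate 1 lay below ZT02 replicate 2, so the groups overlapped, although Cry1 had a log2 fold change of 0.70 ± 0.11 (SE) with adjusted p = 0.0112. Cry2 did not pass (0.30 ± 0.10, adjusted p = 0.113).

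The REV-ERB genes cut across the windows. Nr1d2 had 164 and 175 CPM at ZT10 and 148 and 112 CPM at ZT14, against 72.3 and 52.2 CPM at ZT02 and 99.4 and 116 CPM at ZT06, with an overlap of ZT14 replicate 2 and ZT06 replicate 2, and had a log2 fold change of 0.86 ± 0.16 (SE) with adjusted p = 0.0221. Nr1d1 had 112 and 85.6 CPM at ZT10 and 40.2 and 34.2 CPM at ZT14, against 60.8 and 37.6 CPM at ZT02 and 95.4 and 99.4 CPM at ZT06. The ZT10 and ZT06 libraries were the high ones and the ZT14 and ZT02 libraries the low ones, so pooling the times gave -0.19 ± 0.18, adjusted p = 0.586. Nr1d1 shares exonic sequence with Thra on the opposite strand, and the strand setting of the counting is not given in the sources used here, so their reads cannot be told apart. The same holds for Dbp with Sphk2, Nrg4 with Fbxo22, Acss2 with Gss, Adora1 with Mybph, Timp3 with Syn3, Pfkp with Pitrm1, Cebpd with Spidr, Ucp2 with Dnajb13 and Agpat2 with Egfl7. It also holds for Tef, Usp2, Rora, Cry2, Crtac1, Acot4, Lss, Cox5a, Csnk1e and Tpm4 with noncoding or unnamed gene models.

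Dbp had 134 and 139 CPM at ZT10 and 99.3 and 66.4 CPM at ZT14, against 25.4 and 19.7 CPM at ZT02 and 46.2 and 56.0 CPM at ZT06, without overlap and with ZT10 above ZT14, and it had a log2 fold change of 1.65 ± 0.20 (SE) with adjusted p = 0.00577. Tef had 350.1 and 387 CPM at ZT10 and 365 and 332 CPM at ZT14, against 192 and 144 CPM at ZT02 and 195 and 198 CPM at ZT06, without overlap, and had a log2 fold change of 0.98 ± 0.11 (SE) with adjusted p = 0.00483. Hlf had 24.6 and 27.5 CPM at ZT10 and 28.3 and 24.5 CPM at ZT14, against 10.97 and 9.77 CPM at ZT02 and 9.80 and 9.90 CPM at ZT06, without overlap, and had a log2 fold change of 1.37 ± 0.094 (SE) with adjusted p = 0.00199. All 3 are activators that bind D-boxes. Ciart, a repressor of the BMAL1 complex, had 5.64 and 9.10 CPM at ZT10 and 4.61 and 3.81 CPM at ZT14, against 1.14 and 1.39 CPM at ZT02 and 0.814 and 1.27 CPM at ZT06; every dusk library exceeded every morning library, and Ciart had a log2 fold change of 2.28 ± 0.28 (SE) with adjusted p = 0.00577. Wee1, a kinase that restrains mitosis and a known clock target, had 10.003 and 8.79 CPM at ZT10 and 15.6 and 14.9 CPM at ZT14, against 5.28 and 5.68 CPM at ZT02 and 3.86 and 3.75 CPM at ZT06, without overlap, and had a log2 fold change of 1.39 ± 0.13 (SE) with adjusted p = 0.00268. Usp2, a deubiquitinase, had a log2 fold change of 0.87 ± 0.11 (SE) with adjusted p = 0.00651, with ZT10 libraries inside the morning range.

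Nfil3, the repressor that opposes Dbp, had 3.78 and 3.44 CPM at ZT10 and 9.97 and 13.4 CPM at ZT14, against 14.4 and 16.7 CPM at ZT02 and 5.82 and 5.86 CPM at ZT06. It was low at ZT10, intermediate at ZT06 and high at ZT14 and ZT02, so the groups overlapped; pooled, it had a log2 fold change of -0.55 ± 0.11 (SE) with adjusted p = 0.0241. Bhlhe40 and Bhlhe41, repressors that compete at E-boxes, did not pass, with log2 fold changes of 0.48 ± 0.21 and 0.59 ± 0.21 (adjusted p = 0.221 and 0.141). Nampt, the rate-limiting enzyme of NAD salvage, had 0.16 ± 0.11, adjusted p = 0.456.

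**Figure D2:**
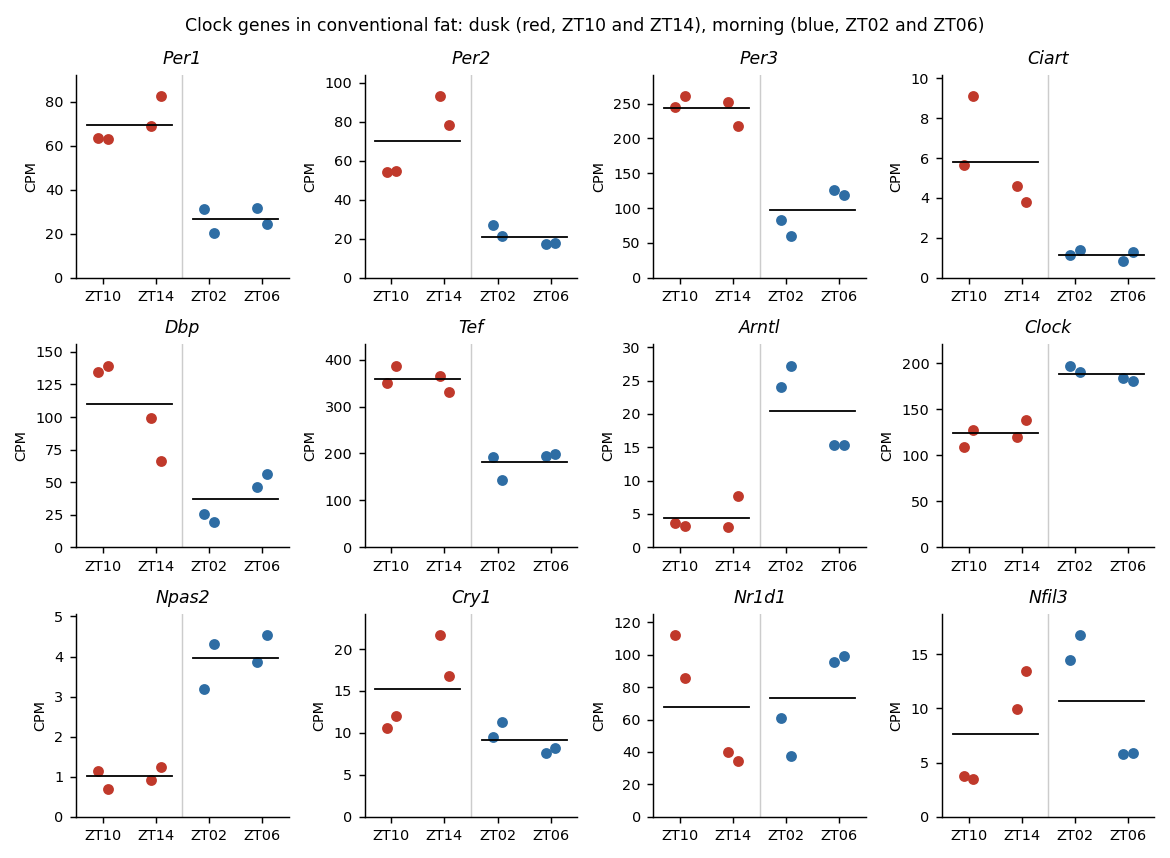
Level (CPM) of 12 clock genes in each conventional library, with dusk (ZT10, ZT14, red) left of morning (ZT02, ZT06, blue); each point is 1 library and black lines are the mean of 4. Per1 to Tef sit higher at dusk, Arntl, Clock and Npas2 sit lower, and Nr1d1 and Nfil3 differ between the times of a window.

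The promoters of these genes were searched for the E-box CACGTG, which the BMAL1 complex binds, and for the D-box (TTATGTAA, TTACGTAA or TTACATAA, read on both strands), which the PAR bZIP factors bind. RefSeq promoters of GRCm38.p6, 250 bases before to 50 after each start, were found for 153 of the 198 named genes. An E-box was present in 2 of 6 clock repressors with a promoter in the table (33.3%) and in 3 of 8 output factors (37.5%), against 8.09% of all 27025 genes. Lists with few calls held similar shares, with E-boxes in 7 of 15 autophagy and lysosome genes (46.7%) and 3 of 10 glycogen genes (30%), so the share was not particular to clock lists. D-boxes were found in 1 of the 6 repressors (16.7%), against 1.23% of all genes. Among all genes with a promoter, an E-box was held by 13.6% of the 522 genes higher at dusk and by 11.2% of the 267 lower ones, against 10.8% of the 12822 tested. A match is a description of the letters and not evidence of binding. The stretches below show those motifs in members of the results, with the E-box or D-box in capitals, each reading 5′ to 3′ on the strand of its gene and ending before the transcription start; Acot4 and Crtac1 are described further on.
Ciart, chr3:95882229-95882384 (minus strand): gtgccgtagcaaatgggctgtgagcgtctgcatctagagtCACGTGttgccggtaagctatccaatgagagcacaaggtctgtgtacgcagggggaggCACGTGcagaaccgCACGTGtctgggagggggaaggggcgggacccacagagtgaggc
Per1, chr11:69098743-69098828 (plus strand): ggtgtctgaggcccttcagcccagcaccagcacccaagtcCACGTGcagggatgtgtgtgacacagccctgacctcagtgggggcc
Cry1, chr10:85185069-85185154 (minus strand): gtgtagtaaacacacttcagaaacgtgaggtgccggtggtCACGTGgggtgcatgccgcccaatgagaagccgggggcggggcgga
Tef, chr15:81802506-81802591 (plus strand): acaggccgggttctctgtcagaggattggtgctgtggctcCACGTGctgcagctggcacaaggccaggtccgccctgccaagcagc
Tef (second start), chr15:81811236-81811321 (plus strand): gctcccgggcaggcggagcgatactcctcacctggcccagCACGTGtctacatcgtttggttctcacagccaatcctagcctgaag
Acot4, chr12:84038273-84038358 (plus strand): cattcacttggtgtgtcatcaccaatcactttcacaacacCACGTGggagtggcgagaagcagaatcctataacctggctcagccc
Per3, chr4:151044776-151044910 (minus strand): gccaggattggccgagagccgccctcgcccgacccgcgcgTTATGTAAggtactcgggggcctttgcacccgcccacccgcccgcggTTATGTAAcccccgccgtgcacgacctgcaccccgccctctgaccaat
Crtac1, chr19:42431789-42431857 (minus strand): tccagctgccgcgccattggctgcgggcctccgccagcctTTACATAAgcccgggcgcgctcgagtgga

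Ciart holds 3 E-boxes in this stretch, and Per3 holds 2 D-boxes. Crtac1 has 2 starts, and bases after the one shown were not found near the beginning of an annotated transcript. Per3, Tef, Acot4 and Ciart rose without overlap, and Cry1 rose with overlap. All the stretches shown come from genes that rose. E-boxes were also found near the starts of named genes that fell, namely Elovl5, Ldha, Calr, Mccc2 and Hsph1. A ROR element, searched on both strands, was found in 1 of 4 activators with a promoter, Arntl, against 0.459% of all genes, starting 26 bases after its second annotated start. The CRE TGACGTCA was found in Hlf and in 2.03% of all genes.

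Fatty acid synthesis genes fell at dusk. Of 18 de novo lipogenesis genes tested, 12 fell and 0 rose (median log2 fold change -0.95), and of 7 genes that supply NADPH for it, 4 fell and 0 rose (median -0.36). Among all tested genes, 1.86% fell and 3.43% rose. The 12 lipogenesis genes that fell cover the path from citrate to long-chain acids. Acly, which splits citrate into acetyl-CoA, had 591 and 375 CPM at ZT10 and 449.8 and 516 CPM at ZT14, against 1411 and 1697 CPM at ZT02 and 1657 and 3667 CPM at ZT06. No dusk library reached a morning library, and ZT06 replicate 2 stood far above the other 3 morning libraries; Acly had a log2 fold change of -2.07 ± 0.42 (SE) with adjusted p = 0.0280. Fasn, fatty acid synthase, had 3420.1 and 1909 CPM at ZT10 and 3322 and 4118 CPM at ZT14, against 6551 and 7029.6 CPM at ZT02 and 8873 and 14920.0 CPM at ZT06, without overlap, and had a log2 fold change of -1.51 ± 0.34 (SE) with adjusted p = 0.0405. Elovl6, which lengthens palmitate, had 33.4 and 31.0 CPM at ZT10 and 37.2 and 41.0 CPM at ZT14, against 85.1 and 107 CPM at ZT02 and 104 and 264 CPM at ZT06. Here too the groups were apart and ZT06 replicate 2 was the highest library; Elovl6 had a log2 fold change of -1.90 ± 0.32 (SE) with adjusted p = 0.0152. Fasn lost its call without any one of 8 libraries, Acly without any one of 7 and Elovl6 without any one of 3.

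Acss2, which makes acetyl-CoA from acetate, had 119 and 73.1 CPM at ZT10 and 113 and 100.0 CPM at ZT14, against 193 and 255 CPM at ZT02 and 307 and 422 CPM at ZT06, without overlap, and had a log2 fold change of -1.50 ± 0.23 (SE) with adjusted p = 0.0111. Acaca, acetyl-CoA carboxylase, averaged 951 ± 175 CPM at dusk and 2209.7 ± 891 CPM in the morning (SD, n = 4 each) and had a log2 fold change of -1.16 ± 0.21. Slc25a1, the citrate carrier, had -0.95 ± 0.18; Thrsp, a regulator of lipogenesis, -0.82 ± 0.16; Mid1ip1, its relative, -0.77 ± 0.17; and Pnpla3, -1.16 ± 0.21. The elongase Elovl5 had 92.5 and 89.2 CPM at ZT10 and 91.8 and 87.9 CPM at ZT14, against 124 and 123 CPM at ZT02 and 129 and 134 CPM at ZT06. Its values were tight within each group and did not overlap, and Elovl5 had a log2 fold change of -0.49 ± 0.045 (SE) with adjusted p = 0.00268. The desaturase Fads1 fell by the smallest amount of the 12 (-0.47 ± 0.11).

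Scd2, a stearoyl-CoA desaturase, had 211 and 159 CPM at ZT10 and 155 and 196 CPM at ZT14, against 574 and 535 CPM at ZT02 and 486 and 539 CPM at ZT06. The 4 dusk libraries lay far below the 4 morning libraries, and Scd2 had a log2 fold change of -1.56 ± 0.13 (SE) with adjusted p = 0.00268. Mir5114, a microRNA gene inside an exon of Scd2 on the same strand, had a dusk-over-morning log2 fold change of -1.51 ± 0.22 (adjusted p = 0.0102), and reads from the 2 genes cannot be separated here. Scd1, the main desaturase of adipocytes, averaged 21591 ± 3659 CPM at dusk and 21579 ± 5875 CPM in the morning (SD, n = 4 each) (0.03 ± 0.13, adjusted p = 0.913). The regulators Srebf1 (-0.24 ± 0.13, adjusted p = 0.322) and Mlxipl, which encodes ChREBP (-0.22 ± 0.15, adjusted p = 0.447), did not pass, nor did Acacb, Fads2 and Elovl3.

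Among the NADPH suppliers, Me1, malic enzyme, had 275 and 226 CPM at ZT10 and 318 and 309 CPM at ZT14, against 469 and 538 CPM at ZT02 and 724 and 1281 CPM at ZT06, without overlap, and had a log2 fold change of -1.34 ± 0.22 (SE) with adjusted p = 0.0144. Pgd, of the pentose phosphate path, had -0.71 ± 0.12 (adjusted p = 0.0175). Tkt had -0.87 ± 0.19 (adjusted p = 0.0378) and Taldo1 -0.36 ± 0.068 (adjusted p = 0.0217), while G6pdx had -0.06 ± 0.078 and adjusted p = 0.679. The lipogenesis count depended on single libraries: 2 of 18 passed without ZT14 replicate 1, 3 without ZT06 replicate 2 or ZT10 replicate 2, and 5 without ZT10 replicate 1 or either ZT02 library. With ZT10 left out 2 passed, and in a fit of all 21 libraries 2 passed. The NADPH count was 0 without ZT06 replicate 2, ZT10 replicate 2 or ZT14 replicate 1, 1 without ZT02 replicate 1, and 2 without ZT10 replicate 1 or ZT14 replicate 2.

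Cholesterol synthesis genes also fell. Of 24 tested, 18 fell and 1 rose (median -0.64), beside 1.86% lower and 3.43% higher among all tested genes. Along the mevalonate arm, Fdps, farnesyl diphosphate synthase, had 15.7 and 11.6 CPM at ZT10 and 12.3 and 17.0 CPM at ZT14, against 33.3 and 33.8 CPM at ZT02 and 32.5 and 31.4 CPM at ZT06. The 4 morning libraries were close to each other and all above the 4 dusk libraries; Fdps had a log2 fold change of -1.21 ± 0.14 (SE) with adjusted p = 0.00483. Its exons overlap Gm43738 on the same strand, so this value is uncertain. Pmvk, phosphomevalonate kinase, had 25.2 and 26.4 CPM at ZT10 and 26.5 and 32.3 CPM at ZT14, against 62.0 and 50.9 CPM at ZT02 and 55.2 and 57.8 CPM at ZT06, without overlap, and had a log2 fold change of -1.04 ± 0.11 (SE) with adjusted p = 0.00370. Sqle, squalene epoxidase, had the largest fall of the list, averaging 9.98 ± 1.56 CPM at dusk and 27.4 ± 7.18 CPM in the morning (SD, n = 4 each), with a log2 fold change of -1.42 ± 0.16 (adjusted p = 0.00483).

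In the sterol arm, Nsdhl had 23.5 and 19.3 CPM at ZT10 and 23.3 and 26.3 CPM at ZT14, against 53.5 and 48.7 CPM at ZT02 and 45.6 and 54.5 CPM at ZT06. The groups were apart, and Nsdhl had a log2 fold change of -1.14 ± 0.12 (SE) with adjusted p = 0.00370. Lss, lanosterol synthase, had 33.4 and 28.9 CPM at ZT10 and 31.9 and 33.2 CPM at ZT14, against 53.0 and 53.9 CPM at ZT02 and 47.5 and 57.5 CPM at ZT06, without overlap, and had a log2 fold change of -0.73 ± 0.081 (SE) with adjusted p = 0.00483. Cyp51, lanosterol demethylase, averaged 34.5 ± 5.40 CPM at dusk and 74.3 ± 19.8 CPM in the morning (SD, n = 4 each) and had -1.08 ± 0.15. Msmo1, which removes methyl groups from the sterol ring, had 26.1 and 29.6 CPM at ZT10 and 27.8 and 34.4 CPM at ZT14, against 66.6 and 62.2 CPM at ZT02 and 27.8 and 27.3 CPM at ZT06. Only the ZT02 libraries were high, and the ZT06 libraries lay among the dusk ones, so this fall (-0.52 ± 0.076, adjusted p = 0.0105) was not seen against ZT06 alone (log2 fold change 0.10 with ZT02 left out). Insig1, which holds SREBP back when sterols are plentiful, had -0.79 ± 0.12, and Hmgcs1, the entry enzyme, -0.58 ± 0.082 (adjusted p = 0.00914). A sterol regulatory element, TCACCCCAC, a motif chosen after seeing the data, was found in 1 of 16 members with a promoter, Hmgcs1, against 0.614% of all genes. The bases after the Hmgcs1 start used here were not found near the beginning of an annotated transcript of that gene. The element is in capitals in this stretch before that start.
Hmgcs1, chr13:119690174-119690262 (plus strand): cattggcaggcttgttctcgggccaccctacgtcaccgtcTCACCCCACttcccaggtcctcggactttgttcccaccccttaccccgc

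Fdft1, squalene synthase, was the 1 member that rose, averaging 75.1 ± 8.10 CPM at dusk and 56.9 ± 5.18 CPM in the morning (SD, n = 4 each) (0.40 ± 0.071, adjusted p = 0.0200). The regulator Srebf2 did not pass (-0.09 ± 0.094, adjusted p = 0.608). Without ZT02, 7 of 24 fell; without ZT10, 6; in the fit of all 21 libraries, 2. Without ZT06 replicate 2, 8 fell, and without ZT02 replicate 1, ZT06 replicate 1 or ZT14 replicate 1, 10 or 11 fell.

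**Figure D3:**
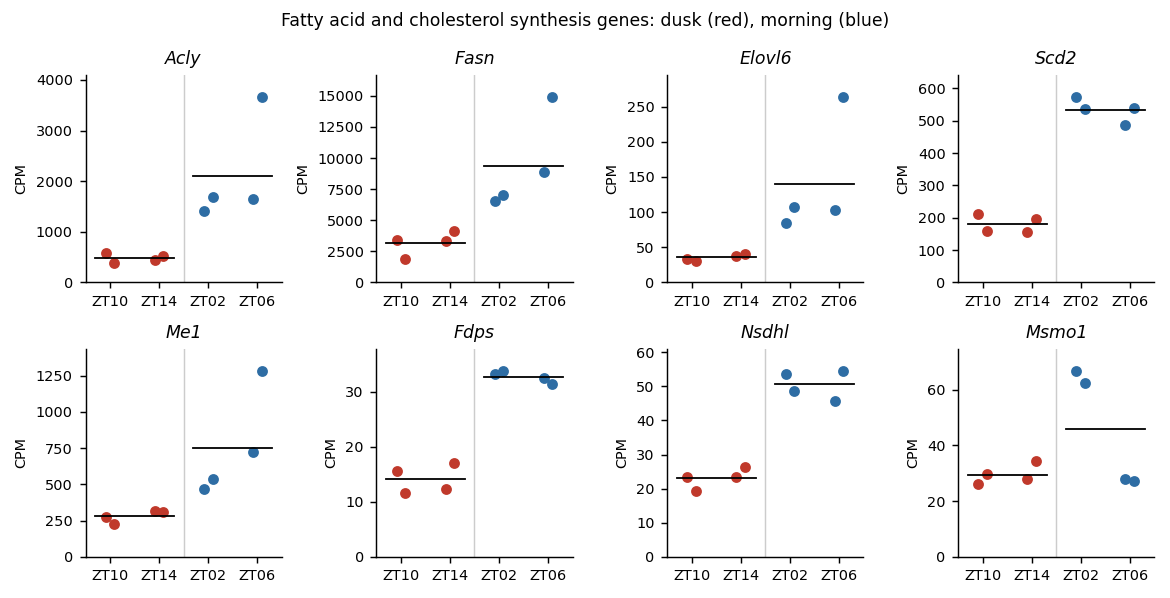
Level (CPM) of 8 genes of fatty acid and cholesterol synthesis in each conventional library, dusk (red) left of morning (blue), with black lines at the mean of 4. ZT06 replicate 2 is the highest library for Acly (3667 CPM), Fasn, Elovl6 and Me1, and Msmo1 is high at ZT02 only.

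Other lipid lists had medians of smaller size. Their counts stand beside 3.43% higher and 1.86% lower among all tested genes. Of 22 genes of triglyceride synthesis and lipid uptake, 1 rose and 2 fell (median 0.06): Slc27a1, a fatty acid transporter, had 0.51 ± 0.13 (adjusted p = 0.0498), Agpat2 -0.59 ± 0.13 (adjusted p = 0.0415) and Dgat2, which adds the last acyl chain, -0.46 ± 0.094 (adjusted p = 0.0293). Slc27a1 lost its call without any one of 10 libraries, Agpat2 without any one of 8 and Dgat2 without any one of 6. Of 21 genes of lipolysis and lipid droplets, 3 rose and 0 fell (median 0.22). Adrb1, a beta-adrenergic receptor that stimulates lipolysis, had 7.33 and 5.61 CPM at ZT10 and 15.1 and 6.54 CPM at ZT14, against 3.58 and 3.35 CPM at ZT02 and 3.92 and 4.33 CPM at ZT06, without overlap, and had a log2 fold change of 1.15 ± 0.24 (SE) with adjusted p = 0.0327, a call lost without any one of 7 libraries. Adora1, a receptor that restrains lipolysis, had 79.8 and 67.3 CPM at ZT10 and 88.6 and 68.1 CPM at ZT14, against 42.9 and 37.7 CPM at ZT02 and 56.2 and 55.2 CPM at ZT06, without overlap, and had a log2 fold change of 0.68 ± 0.11 (SE) with adjusted p = 0.0153. Plin4, a lipid droplet coat protein, had 0.63 ± 0.12 (adjusted p = 0.0236).

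Of 23 fatty acid oxidation genes, 2 rose and 1 fell (median -0.01). Cpt1a, which admits acyl groups to mitochondria (0.37 ± 0.086, adjusted p = 0.0434), and Ucp2 (0.52 ± 0.12, adjusted p = 0.0455) rose. The peroxisomal enzyme Ehhadh fell (-0.50 ± 0.10, adjusted p = 0.0291). Ucp2 lost its call without any one of 9 libraries, Cpt1a without any one of 8 and Ehhadh without any one of 6. Pck1, which feeds glycerol synthesis between meals, had 2845 and 1754 CPM at ZT10 and 2582 and 1104 CPM at ZT14, against 772 and 363 CPM at ZT02 and 2314 and 2056 CPM at ZT06; the groups overlapped and it did not pass (0.89 ± 0.33, adjusted p = 0.155). Of 10 thermogenic genes tested 1 fell (median -0.34), Cidea (-1.11 ± 0.25, adjusted p = 0.0378), at 0.443 to 1.36 CPM at dusk, against 1.05 to 2.87 CPM in the morning.

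Of 26 respiratory chain genes, 7 passed as lower and 0 as higher, beside 1.86% and 3.43% of all tested genes. All 26 had a negative log2 fold change (median -0.18, range -0.40 to -0.07). In 3 of the 26 the dusk libraries lay below the morning ones without overlap, against 4.82% of all tested genes. Cox5a, a cytochrome oxidase subunit, had 56.0 and 52.4 CPM at ZT10 and 59.1 and 59.9 CPM at ZT14, against 67.1 and 65.9 CPM at ZT02 and 82.2 and 86.3 CPM at ZT06, without overlap, and had a log2 fold change of -0.40 ± 0.061 (SE) with adjusted p = 0.0115. Ndufs8 of complex I had -0.30 ± 0.056 (adjusted p = 0.0235). The 31 proteasome subunits were also all negative (median -0.18), and 4 passed as lower, led by Psma3 (-0.27 ± 0.039, adjusted p = 0.0103). Of the 31, 13 were lower at dusk without overlap. All 30 cytosolic ribosomal proteins were negative (median -0.12) and 0 passed by edgeR, with 16 lower at an unadjusted p under 0.05 and 6 by DESeq2. Of the 30, 15 were lower at dusk without overlap. The dusk fold change followed exon length as given above. With a per-library offset for exon length, chosen after seeing the data, the medians were -0.16, -0.16 and -0.10, and 5, 5 and 1 members of the 3 lists passed as lower.

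For the lists of sugar metabolism and insulin signalling, too, the shares among all tested genes were 3.43% higher and 1.86% lower. Of 22 genes of glucose uptake and glycolysis, 5 fell and 1 rose (median -0.10). The phosphofructokinases Pfkp (-0.50 ± 0.082, adjusted p = 0.0146) and Pfkl (-0.43 ± 0.081, adjusted p = 0.0224), aldolase Aldoa (-0.46 ± 0.076, adjusted p = 0.0146), lactate dehydrogenase Ldha (-0.44 ± 0.091, adjusted p = 0.0314) and Pgk1 (-0.25 ± 0.057, adjusted p = 0.0399) fell. Pdk2, a kinase that shuts pyruvate dehydrogenase off, rose (0.59 ± 0.14, adjusted p = 0.0420). Of 13 glycogen genes 2 rose (median -0.14), Pygb, a glycogen phosphorylase (0.49 ± 0.086, adjusted p = 0.0183), and Epm2a, laforin (0.36 ± 0.084, adjusted p = 0.0442). Epm2a lost its call without any one of 9 libraries and Pygb without any one of 4. Of 18 insulin signalling genes 2 rose (median 0.17), among them the transcription factor Foxo3 (0.33 ± 0.049, adjusted p = 0.0111).

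Of 22 heat shock genes, 10 fell and 0 rose (median -0.26), beside 1.86% lower and 3.43% higher among all tested genes. By sign 14 were negative and 8 positive, and 1 lay higher at dusk without overlap. Cryab, which did not pass, had 42.2 to 49.4 CPM at dusk, against 32.3 to 41.3 CPM in the morning. These Cryab values are conventional libraries scaled as in the fit of all 21. Hsph1, an HSP110 chaperone, had 18.4 and 18.2 CPM at ZT10 and 37.1 and 31.0 CPM at ZT14, against 61.4 and 50.8 CPM at ZT02 and 30.1 and 36.5 CPM at ZT06. ZT10 was lowest and ZT02 highest, and the ZT14 libraries lay at the ZT06 level, so the groups overlapped; Hsph1 had a log2 fold change of -0.79 ± 0.12 (SE) with adjusted p = 0.0127. Hsp90aa1, the inducible HSP90, had 186 and 178 CPM at ZT10 and 203 and 178 CPM at ZT14, against 264 and 249 CPM at ZT02 and 229 and 238 CPM at ZT06, without overlap, and had a log2 fold change of -0.39 ± 0.057 (SE) with adjusted p = 0.0102. The co-chaperone Stip1 had -0.42 ± 0.059 (adjusted p = 0.00942). The classical stress-induced genes Hspa1a and Hspa1b did not pass (0.15 ± 0.20 and 0.19 ± 0.11, adjusted p = 0.700 and 0.351). Without ZT06 replicate 2, 1 of 22 fell, and without ZT02 replicate 1, ZT02 replicate 2, ZT10 replicate 2 or ZT14 replicate 1, 4 to 6 fell. A heat shock element, searched on both strands as GAANNTTCNNGAA or TTCNNGAANNTTC, was found in 4 of 17 members with a promoter (23.5%), against 0.662% of all genes.

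Among all tested genes, 3.43% rose and 1.86% fell. Of 25 genes of the unfolded protein and amino acid stress responses, 4 fell and 2 rose (median -0.01). The fallers were chaperones of the endoplasmic reticulum, Hspa5 (-0.38 ± 0.069, adjusted p = 0.0212), Calr (-0.36 ± 0.053, adjusted p = 0.0106), Hyou1 (-0.25 ± 0.055, adjusted p = 0.0377) and Creld2 (-0.39 ± 0.056, adjusted p = 0.0102). Herpud1, of the degradation branch (0.40 ± 0.067, adjusted p = 0.0152), and Chac1, which breaks down glutathione (1.11 ± 0.26, adjusted p = 0.0429), rose.

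The counts of the next 2 lists stand beside 3.43% higher and 1.86% lower among all tested genes. Of 17 genes of the response to fasting and to glucocorticoid hormone, 3 were higher and 0 lower (median 0.10). By sign 11 were positive and 6 negative, down to -1.26. Sgk1, a kinase induced by the hormone, had 45.6 and 49.3 CPM at ZT10 and 64.4 and 57.8 CPM at ZT14, against 38.1 and 34.6 CPM at ZT02 and 28.2 and 29.97 CPM at ZT06, without overlap, and had a log2 fold change of 0.73 ± 0.12 (SE) with adjusted p = 0.0136. Tsc22d3, encoding the mediator GILZ, had 175 and 185 CPM at ZT10 and 313 and 346 CPM at ZT14, against 219.6 and 155 CPM at ZT02 and 120.2 and 117 CPM at ZT06. Its ZT14 libraries were high and its ZT10 libraries lay among the morning ones; Tsc22d3 had a log2 fold change of 0.71 ± 0.14 (SE) with adjusted p = 0.0254. Cebpd had 0.55 ± 0.12 (adjusted p = 0.0360). Of 25 immediate early genes 3 rose and 0 fell (median 0.25): Klf2 (0.72 ± 0.14, adjusted p = 0.0244), Klf4 (0.50 ± 0.11, adjusted p = 0.0338) and Maff (0.88 ± 0.18, adjusted p = 0.0279).

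Of the 12 highest fold changes among non-overlapping called genes that averaged 1 log2 CPM or more, 3 were clock genes (Ciart, Per2, Dbp). Crtac1, a secreted matrix protein, had 6.66 and 10.3 CPM at ZT10 and 18.4 and 7.72 CPM at ZT14, against 0.731 and 0.568 CPM at ZT02 and 1.63 and 2.05 CPM at ZT06, without overlap, and had a log2 fold change of 3.26 ± 0.42 (SE) with adjusted p = 0.00658. Sfrp5, an adipokine that binds Wnt ligands, had 28.3 and 49.4 CPM at ZT10 and 59.8 and 27.7 CPM at ZT14, against 10.5 and 7.98 CPM at ZT02 and 4.55 and 3.13 CPM at ZT06. Dusk and morning did not overlap, and the dusk libraries spread widely within both times; Sfrp5 had a log2 fold change of 2.79 ± 0.56 (SE) with adjusted p = 0.0279 and lost its call without any one of 7 libraries (adjusted p up to 0.13). Bmp3, a ligand that opposes other bone morphogenetic proteins, had 31.8 and 29.0 CPM at ZT10 and 34.9 and 17.6 CPM at ZT14, against 6.42 and 11.4 CPM at ZT02 and 8.92 and 6.81 CPM at ZT06, without overlap, and had a log2 fold change of 1.75 ± 0.38 (SE) with adjusted p = 0.0345, with calls lost without any one of 7 libraries.

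Nnat, which encodes neuronatin, an imprinted membrane protein of the endoplasmic reticulum, had 1680.2 and 1322 CPM at ZT10 and 1882 and 1320.2 CPM at ZT14, against 453 and 534 CPM at ZT02 and 673 and 364 CPM at ZT06. Every dusk library lay far above the highest morning library, and Nnat had a log2 fold change of 1.62 ± 0.21 (SE) with adjusted p = 0.00683. Fbxo21, a substrate receptor of a ubiquitin ligase, had 279 and 245 CPM at ZT10 and 364 and 177 CPM at ZT14, against 79.2 and 77.3 CPM at ZT02 and 113 and 82.5 CPM at ZT06, without overlap, and had a log2 fold change of 1.61 ± 0.21 (SE) with adjusted p = 0.00658. Acot4, a peroxisomal thioesterase, had 15.4 and 12.7 CPM at ZT10 and 21.5 and 15.6 CPM at ZT14, against 5.15 and 4.54 CPM at ZT02 and 7.24 and 7.39 CPM at ZT06, without overlap, and had a log2 fold change of 1.44 ± 0.13 (SE) with adjusted p = 0.00268. Cacna1e, a calcium channel subunit, had 16.8 and 33.8 CPM at ZT10 and 14.3 and 13.7 CPM at ZT14, against 10.02 and 8.86 CPM at ZT02 and 3.47 and 3.65 CPM at ZT06, without overlap but with ZT10 replicate 2 far above the rest, and had a log2 fold change of 1.702 ± 0.30 (SE) with adjusted p = 0.0200. Disp2 had 1.68 ± 0.36 (adjusted p = 0.0351) and Ptchd4 1.40 ± 0.21 (adjusted p = 0.0112). The call was lost without any one of 7 libraries for Disp2, 6 for Cacna1e and 1 for Ptchd4.

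The 2 lists of this paragraph stand beside 3.43% higher and 1.86% lower among all tested genes. Of 14 genes of the adipokine list, 3 rose and 1 fell (median 0.20). Those that rose were Sfrp5, Nrg4 and Nnat, the last described above as a membrane protein. Nrg4, a growth factor of the EGF family, had 192 and 159.6 CPM at ZT10 and 236 and 174 CPM at ZT14, against 73.4 and 58.2 CPM at ZT02 and 136 and 137 CPM at ZT06, without overlap. Its log2 fold change was 1.004 ± 0.12 (SE) with adjusted p = 0.00577. Igf1 fell (-0.46 ± 0.11, adjusted p = 0.0417). Leptin, Lep, had 882 and 1406 CPM at ZT10 and 1395 and 1437 CPM at ZT14, against 1422 and 1071 CPM at ZT02 and 719.7 and 587 CPM at ZT06; the groups overlapped and it did not pass (0.50 ± 0.21, adjusted p = 0.214). Of 14 genes of xenobiotic metabolism and haem synthesis 2 rose (median 0.21): Por, the electron donor of microsomal P450 enzymes (0.60 ± 0.085, adjusted p = 0.01000), and Gstt2 (0.79 ± 0.091, adjusted p = 0.00483).

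The 12 lowest fold changes under the same conditions included 3 serine protease inhibitors of the Serpina3 cluster. Serpina3k had 17.5 and 13.4 CPM at ZT10 and 13.8 and 12.6 CPM at ZT14, against 85.8 and 100.1 CPM at ZT02 and 58.4 and 33.7 CPM at ZT06, without overlap, and had a log2 fold change of -2.20 ± 0.29 (SE) with adjusted p = 0.00683. Serpina3m had a dusk-over-morning log2 fold change of -2.05 ± 0.25 (adjusted p = 0.00577) and Serpina3b a dusk-over-morning log2 fold change of -2.12 ± 0.42 (adjusted p = 0.0265), which lost its call without any one of 7 libraries and with the hepatocyte covariate. The first 2 share exonic sequence and all are close relatives, so reads may be split between them and these values are uncertain. Mmp9, a gelatinase, had 9.09 and 6.96 CPM at ZT10 and 5.47 and 8.00 CPM at ZT14, against 12.7 and 76.4 CPM at ZT02 and 19.9 and 18.9 CPM at ZT06. The groups did not overlap, but ZT02 replicate 2 alone reached 76.4 CPM; Mmp9 had a log2 fold change of -2.00 ± 0.45 (SE) with adjusted p = 0.0402, and the call was lost without any one of 8 libraries. Parm1 had -1.52 ± 0.25 (adjusted p = 0.0152).

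Markers of other cell types seldom passed, and passing was also rare among all tested genes (3.43% higher and 1.86% lower). Few calls in lists this short cannot show that the cell make-up was stable. Of 15 lymphocyte markers 1 fell (median -0.35), Ighm, the immunoglobulin mu chain, which had 238 and 212 CPM at ZT10 and 199 and 247 CPM at ZT14, against 460.1 and 698 CPM at ZT02 and 316 and 373 CPM at ZT06, without overlap, and had a log2 fold change of -0.99 ± 0.14 (SE) with adjusted p = 0.0104. In bulk tissue fewer cells of a type and less RNA per cell cannot be told apart. Of 21 macrophage markers 1 rose (median 0.10), Cd14 (0.32 ± 0.074, adjusted p = 0.0417). Of 5 Schwann cell markers 1 rose (median -0.04), Mbp (0.33 ± 0.08, adjusted p = 0.0476). Cd14 lost its call without any one of 10 libraries and Mbp without any one of 8. Of the markers of adipocytes (13), progenitors and fibroblasts (16), endothelial cells (15), smooth muscle and pericytes (10), granulocytes and mast cells (14) and mesothelial cells (12), 0 passed by edgeR. Neither did any of the 12 ciliated duct markers, whose median was -1.43, nor of the 12 hepatocyte markers, whose median was -1.38. The same held for markers of skeletal muscle (9 tested, median -0.07), erythroid cells (6, -0.56), epididymis and accessory glands (7, 5.29) and spermatids (6, -2.96). Epididymal and accessory gland markers summed to 1612 CPM in ZT10 replicate 2 and to 1.39 to 13.4 CPM in the other dusk libraries. Spermatid markers summed to 0.0676 and 0 CPM at ZT10 and to 58.3 CPM in ZT14 replicate 1. Their mean sum was higher at dusk (14.7 CPM, against 7.88 CPM in the morning), unlike the sign of their median. Over the 132 markers of these 12 lists, 12 were higher and 8 lower at an unadjusted p under 0.05, and DESeq2 passed 10 and 8. Their part in the other results was not tested beyond the fits with these sums as covariates, which gave 405 higher and 257 lower genes for duct markers and 356 and 165 for hepatocyte markers.

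The remaining lists had few calls, and their counts stand beside 3.43% higher and 1.86% lower among all tested genes. Of 28 matrix genes (median -0.02), 1 was higher, Timp3, an inhibitor of metalloproteinases (0.47 ± 0.086, adjusted p = 0.0205). The gelatinase Mmp2 was the 1 lower gene (-0.43 ± 0.091, adjusted p = 0.0345). Of 17 autophagy genes, Tfeb, the master regulator of lysosomes, rose (0.37 ± 0.057, adjusted p = 0.0115) and Lamp2 fell (-0.22 ± 0.052, adjusted p = 0.0432; median 0.09). Of 19 genes of branched-chain amino acid breakdown, Mccc2 fell (-0.26 ± 0.059, adjusted p = 0.0407, list median -0.03). Calls were lost without any one of 10 libraries for Mmp2 and Lamp2, 9 for Mccc2, 5 for Timp3 and 1 for Tfeb. None passed by edgeR among 14 genes of NAD metabolism and sirtuins (median 0.02), 15 of collagen folding (0.04), 29 of the cell cycle (0.13), 20 interferon-stimulated genes (-0.21) and the cold-inducible Cirbp and Rbm3 (-0.15 ± 0.084 and -0.03 ± 0.076). Over the 80 genes of these 5 lists, 6 were higher and 8 lower at an unadjusted p under 0.05, and DESeq2 passed 0 higher and 4 lower.

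**Figure D4:**
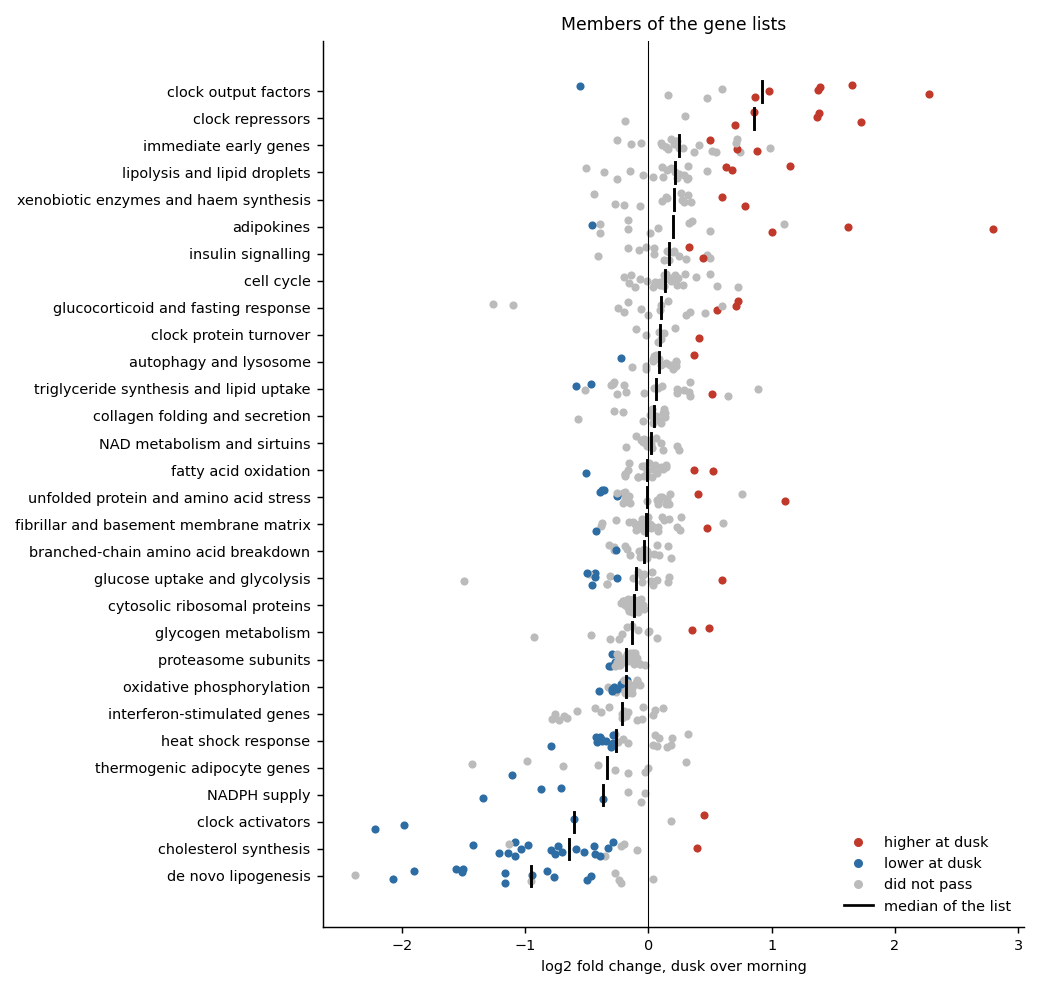
Log2 fold change of dusk over morning (horizontal axis) of the tested members of 30 gene lists (rows), with the median of each list as a black bar. Red members rose, blue members fell and grey members did not pass; de novo lipogenesis (12 of 18 lower) and cholesterol synthesis (18 of 24 lower) lie at the bottom, and the clock output factors (median 0.92) at the top.

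The 2 times of a window also differed. By ZT06, 46 genes were higher than at ZT02 (0.233%) and 73 were lower (0.369%). Glcci1, a gene named for its induction by glucocorticoids, had 49.2 and 49.3 CPM at ZT10 and 44.9 and 46.0 CPM at ZT14, against 28.7 and 25.6 CPM at ZT02 and 55.6 and 52.1 CPM at ZT06, and its ZT06 libraries lay about 1 log2 unit above its ZT02 libraries (0.99 ± 0.079, adjusted p = 0.00592). Umad1 had 0.64 ± 0.056, adjusted p = 0.00592 and Fas, the death receptor, 0.64 ± 0.077, adjusted p = 0.0177. Glcci1 and Umad1 share exonic sequence with Gm45062 on the same strand, and their values are uncertain. Lower by ZT06 were Msmo1 (-1.22 ± 0.11, adjusted p = 0.00592), Rfx2 (-1.28 ± 0.11, adjusted p = 0.00592) and Rpia, of the pentose phosphate path (-1.003 ± 0.10, adjusted p = 0.0120). Markers of other tissues moved between these times too. Summed ciliated duct markers were 16.1 and 62.3 CPM at ZT06, against 236 and 243 CPM at ZT02, and hepatocyte markers 129 and 38.7 CPM at ZT06, against 103 and 676 CPM at ZT02. The list medians for ZT06 over ZT02 were -2.89 for the 12 duct markers and -2.45 for the 12 hepatocyte markers, and their part in these calls was not tested.

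From ZT06 to ZT10, the step across the windows, 103 genes were higher at ZT10 (0.521%) and 172 were lower (0.871%). The lipogenesis list had a median of 0.08 for ZT06 over ZT02, -0.95 for ZT10 over ZT06 and 0.26 for ZT14 over ZT10. The cholesterol list had medians of -0.50, -0.47 and 0.16 for the same 3 steps. Between the dusk times, Nfil3 was the 1 gene higher at ZT14 than at ZT10 (0.00506%; 1.69 ± 0.15, adjusted p = 0.0293). No gene was lower (0%) by edgeR, although 657 were lower at an unadjusted p under 0.05 and DESeq2 passed 9. The number of genes higher at ZT14 was 1 without either ZT14 library and 0 in each other fit that left out 1 library. Without either ZT06 library no gene passed between the morning times in either direction.

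Germ-free fat was compared over the same times, with 3 dusk and 3 morning libraries and values from a fit of all 21. By edgeR the change differed between the arms in 1 of 21517 genes (0.00465%), against 2468 at an unadjusted p under 0.05. That gene was S100a4, a calcium-binding protein of fibroblasts and leukocytes. In conventional fat it had 25.2 and 19.2 CPM at ZT10 and 18.3 and 18.8 CPM at ZT14, against 15.6 and 16.6 CPM at ZT02 and 15.9 and 15.7 CPM at ZT06, without overlap, and in germ-free fat 11.5 and 11.5 CPM at ZT10 and 10.4 CPM at ZT14, against 24.6 CPM at ZT02 and 15.7 and 15.0 CPM at ZT06, where dusk lay below morning. Its log2 fold change was 0.35 ± 0.084 in conventional and -0.83 ± 0.10 in germ-free fat, a difference of 1.18 ± 0.13 (SE, adjusted p = 0.0303). S100a4 shares exonic sequence with Gm42674 on the same strand. Marker lists of such cells stood beside it. The median of the 21 macrophage markers was 0.11 in conventional and -0.59 in germ-free fat, and that of the 16 markers of progenitors and fibroblasts -0.01 and -0.39. In germ-free fat the summed macrophage markers were 1284 to 1411 CPM at dusk, against 1358 to 2274 CPM in the morning, with the single ZT02 library highest, as it was for S100a4. Their part in the difference was not tested. No gene passed without either ZT06 library or either ZT14 library of the conventional arm, and 6 passed without ZT10 replicate 2. DESeq2 passed many more genes for this difference, as given below with the dependence on processing.

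The next 4 genes by p did not pass. Serpina3m had -2.05 ± 0.26 in conventional and 1.15 ± 0.31 in germ-free fat (adjusted p of the difference = 0.0539), and Serpina3k -2.19 ± 0.32 and 1.67 ± 0.40 (0.0539). In germ-free fat Serpina3k had 16.0 and 8.02 CPM at ZT10 and 53.9 CPM at ZT14, against 6.31 CPM at ZT02 and 11.9 and 8.25 CPM at ZT06, and Serpina3m had 23.4 and 14.7 CPM at ZT10 and 66.4 CPM at ZT14, against 14.1 CPM at ZT02 and 22.0 and 14.2 CPM at ZT06. The single germ-free ZT14 library was high and the ZT10 libraries lay at or near the morning values. That library also had the highest hepatocyte sum of the 6 (485 CPM, against 43.0 to 103 CPM in the others), the 12 hepatocyte markers had a median of 1.97 in germ-free fat, and their part in these values was not tested. Tpm4, a tropomyosin, had 0.35 ± 0.071 and -0.44 ± 0.087 (0.0613), and Adamtsl5 0.36 ± 0.072 and -0.40 ± 0.089 (0.0833). Per2 and Arntl moved in the same direction in both arms: 1.73 ± 0.21 in conventional and 2.08 ± 0.26 in germ-free fat for Per2, and -2.21 ± 0.23 and -2.57 ± 0.30 for Arntl.

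Lipogenic genes that fell in conventional fat had log2 fold changes nearer 0 or above it in germ-free fat, but no difference passed by edgeR. The DESeq2 results of single genes for this difference are not reported here. Fasn had -1.51 ± 0.40 in conventional and 0.43 ± 0.49 in germ-free fat (adjusted p of the difference = 0.280), Acly -2.07 ± 0.57 and -0.33 ± 0.67 (0.490), and Elovl6 -1.90 ± 0.56 and 0.24 ± 0.66 (0.376). In germ-free fat Elovl6 had 492 and 136 CPM at ZT10 and 110.4 CPM at ZT14, against 85.3 CPM at ZT02 and 286 and 293 CPM at ZT06, and Acly had 4472 and 1697 CPM at ZT10 and 827 CPM at ZT14, against 1244 CPM at ZT02 and 3618 and 2855 CPM at ZT06. ZT10 replicate 1 was the highest germ-free library for all 3 genes, and the other germ-free dusk libraries lay below both ZT06 libraries for Acly and Elovl6. The list median was -0.94 in conventional and 0.21 in germ-free fat, and the germ-free values without that library were not computed. Scd2 had -1.56 ± 0.31 in conventional and -1.23 ± 0.38 in germ-free fat (0.890). Sfrp5 had 2.80 ± 0.65 and -0.64 ± 0.77 (0.231), Bmp3 1.76 ± 0.35 and -0.36 ± 0.41 (0.204), and Nnat 1.62 ± 0.29 and 0.43 ± 0.35 (0.348). A p that misses the threshold does not show that the arms changed alike.

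**Figure D5:**
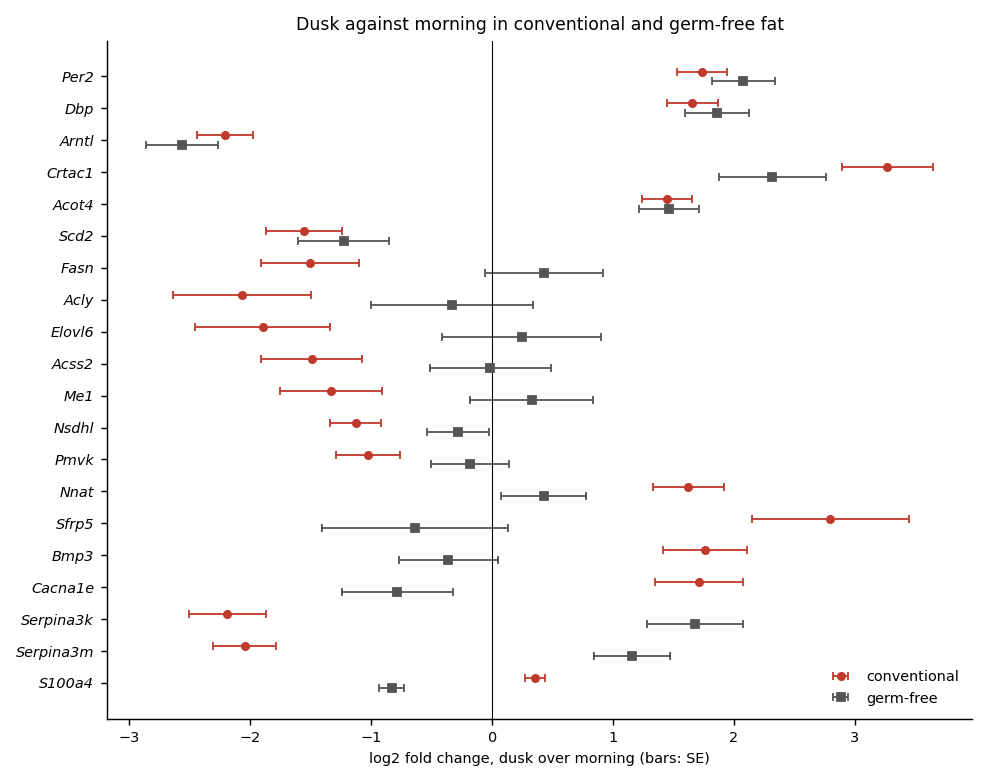
Log2 fold change of dusk over morning (horizontal axis, bars are SE) of 20 genes in conventional (red circles) and germ-free fat (grey squares), from the fit of all 21 libraries. Genes on the same side of 0 in both arms include Per2, Dbp, Arntl, Crtac1, Acot4, Scd2, Acly and Nnat. In germ-free fat the single ZT14 library was the highest for Serpina3k and Serpina3m (53.9 and 66.4 CPM). S100a4 is the gene whose difference passed by edgeR (1.18).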

How the data were processed

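Total RNA of mouse epididymal fat was sequenced paired-end from stranded libraries after ribosomal RNA removal, per the labels' protocols. Reads were aligned with STAR 2.4.0i to mm10, per the submitters' processing notes. For the counting program, its strand setting and the annotation, nothing was given in the sources used here. What the authors deposited was 1 table of whole-number counts per gene for 21 libraries and 38087 genes, without mitochondrially encoded genes.

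From these counts, CPM and log2 fold changes were computed with edgeR 4.0.16 (R 4.3.3, limma 3.58.1). A quasi-likelihood model with TMM scaling and time as a factor was fitted to the 12 conventional libraries, with 6 residual degrees of freedom. Lowly counted genes were filtered with edgeR's filterByExpr. Dusk minus morning was the mean of the ZT10 and ZT14 coefficients minus the mean of ZT02 and ZT06. P-values were adjusted by Benjamini-Hochberg over all tested genes, with a threshold of 0.05. Each SE of a log2 fold change was derived from the test, as its absolute value divided by the square root of the F statistic. The germ-free comparison came from 1 fit of all 21 libraries. Library measures were compared with two-sided exact permutation tests over 70 relabellings. The script was tested on simulated data. Alternatives included DESeq2 1.42.0.

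Named genes were the 12 highest and 12 lowest called genes without overlap that averaged 1 log2 CPM or more, skipping placeholder gene models and pseudogenes. Added to these were all clock genes, up to 4 called and 2 uncalled members of each other list, the 5 smallest p of the arm difference and the 3 smallest in each direction between times. Other list members are named with the values of their list, and some genes that meet the rule are not reported here. Gene lists and members were chosen with earlier results of these data known. Gene positions and exonic overlaps of at least 50 bases came from GENCODE M21, which matched 36308 genes. Promoter sequences are from RefSeq, GRCm38.p6. Figures were drawn with matplotlib 3.10.9. The total counts limit precision, and no interval covers more than the spread between libraries.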

Additional observations from a re-analysis of the deposited data

Results flagged for a closer look

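A value was marked where 1 of 4 libraries stood far from the other 3 of its group, by Dixon's test; 19 of the 254 groups of 4 examined were marked, and chance alone marks about 1 in 20. Of the genes higher or lower at dusk, Acly reached 3667 CPM and Elovl6 264 CPM in ZT06 replicate 2, Cacna1e 33.8 CPM in ZT10 replicate 2, Mmp9 76.4 CPM in ZT02 replicate 2 and Ehhadh 88.3 CPM in ZT10 replicate 1. Arntl was highest of the dusk libraries in ZT14 replicate 2 (7.68 CPM). Among morning libraries, Hlf was highest in ZT02 replicate 1 (10.97 CPM), Disp2 in ZT02 replicate 1 (7.39 CPM) and Fbxo21 in ZT06 replicate 1 (113 CPM), and Tef was lowest in ZT02 replicate 2 (144 CPM). Of genes that did not pass, G6pdx stood at 233.0 CPM, Lep at 882 CPM and S100a4 at 25.2 CPM in ZT10 replicate 1.

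Summed markers stood apart for hepatocytes in ZT02 replicate 2 (676 CPM), epididymis and accessory glands in ZT10 replicate 2 (1612 CPM), spermatids in ZT14 replicate 1 (58.3 CPM) and skeletal muscle in ZT14 replicate 1 (27.7 CPM). The same was found for Schwann cells in ZT02 replicate 2 (48.7 CPM) and erythroid cells in ZT06 replicate 1 (1154 CPM). The dusk change of S100a4 differed between conventional and germ-free fat by 1.18 on the log2 scale (adjusted p = 0.0303, edgeR). The hepatocyte sum was used as a covariate and each library was left out in turn; the part of the other sums was not tested separately.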

How the results depend on the processing

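The counts were 678 (genes higher at dusk) and 368 (genes lower at dusk). They were 1185 and 751 with DESeq2, 954 and 612 with the 8 dusk and morning libraries alone, and 329 and 64 with all 21 libraries. A ciliated duct covariate gave 405 higher genes, and a hepatocyte covariate gave 356 and 165. Leaving ZT02 out gave 300 higher genes and 358 lower ones, leaving ZT10 out 179 and 36, and 2 groups of 4 with no time factor 423 and 181. Both counts were 0 without the 4 libraries high in duct markers, a setting added after seeing the data; so were those of the 7 gene lists below. Leaving out 1 library gave 92 to 1002 higher and 38 to 570 lower genes. RLE size factors (681 and 386), no filter (839 and 517) and an exon length offset (556 and 396) stayed within 1.5 times. With the exon length offset, 11 named genes lost their calls, among them Slc27a1, Cpt1a, Ucp2, Epm2a, Mbp and Mccc2.

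Lipogenesis (12 lower) had 2 with all 21 libraries, 7 with the hepatocyte covariate, 2 without ZT10 and 2 to 13 without 1 library. Cholesterol synthesis (18) had 2 with all 21 libraries, 7 without ZT02, 6 without ZT10, 10 with no time factor and 8 to 18 without 1 library. Heat shock (10) had 2 with all 21 libraries, 6 with the hepatocyte covariate, 6 without ZT02, 1 without ZT10, 6 with no time factor and 1 to 12 without 1 library. NADPH supply (4) had 0 with all 21 libraries, 2 with the hepatocyte covariate, 0 without ZT10, 2 with no time factor and 0 to 4 without 1 library. Clock repressors (5 higher) had 3 with no time factor and 3 to 6 without 1 library. Leaving out 1 library left 6 clock output factors higher and 3 activators lower each time.

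The step from ZT02 to ZT06 gave 168 higher and 279 lower genes with no filter, 503 and 481 with DESeq2, 7 and 9 with all 21 libraries, and 0 to 219 and 0 to 297 without 1 library. The step from ZT10 to ZT14 gave 2 and 1 with no filter, 44 and 9 with DESeq2, 0 higher with all 21 libraries, and 0 to 1 and 0 to 7 without 1 library. The arm difference held for 9 genes with no filter, 437 with DESeq2, 9 with the 14 dusk and morning libraries and 0 to 6 without 1 library. Glcci1 and Umad1 were also called higher at dusk. With single libraries left out, their log2 fold changes of dusk over morning were 0.27 to 0.35 and 0.19 to 0.23. Reversed log2 fold changes of dusk over morning without ZT02 were -0.18 for Glcci1, 0.098 for Msmo1, 0.16 for Nfil3 and -0.10 for Umad1. Without ZT10, Nfil3 had 0.29, and without the duct-high libraries Glcci1 had -0.23, Msmo1 0.0085, Nfil3 0.054 and Umad1 -0.14. The causes were not tested.

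With the replicate number as a block, 703 genes were higher and 448 lower at dusk, 169 and 224 between ZT02 and ZT06, 0 higher between ZT10 and ZT14, and 3 differed between the arms. Of the named genes, Atp5o, Lamp2 and Mbp lost their calls with it. Deviations of same-numbered conventional libraries from their time means correlated at 0.296 to 0.520 in the 10 pairs among ZT06 to ZT22. In the 5 pairs with ZT02 they correlated at -0.183 to 0.108. Same-numbered libraries of ZT06 to ZT22 thus shared part of their deviation. The main fit used no block, so this shared part stayed in its spread, and its source was not tested.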
